A study of Mus musculus with 4 samples.

Results

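The comparison set 1 array labelled constitutive Ring1B KO against the 1 array labelled as its control, 2 of the 4 arrays of a series on mouse embryonic stem (ES) cells. Both arrays were chosen by their titles alone. The control array holds RNA of wild-type ES cells, and the other array holds RNA of ES cells labelled as a constitutive knockout of Ring1B. The remaining 2 arrays are the conditional double KO of both Ring1 paralogues, taken at day 4, and its control, whose source is also labelled wild-type. The strain, the clone and the passage of the cells are not given in the sources used here. With 1 array a side there is no replicate and no test, so every value is a description of these 2 hybridisations, and biological and technical differences between the samples cannot be told apart. Of 18193 named genes on the array, 12343 had a signal above a floor of 66.0 on at least 1 of the 2 arrays and are described here. The floor is the 40th percentile of the scaled signals of named probe sets on all 4 arrays, and a signal under it carries no order.

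Ring1B, encoded by Rnf2, is the catalytic E3 ubiquitin ligase of Polycomb repressive complex PRC1, which places a ubiquitin on histone H2A. Its paralogue Ring1A, encoded by Ring1, can occupy the same position in the complex. In ES cells PRC1 sits at the promoters of many developmental regulators, which are held at low transcription, and a variant of the complex is recruited by sequence-specific factors to germ cell genes.

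The targeted gene was checked first. The brightest Rnf2 probe set read 4655 in the control and 5008 in the sample labelled Ring1B KO. A second bright Rnf2 probe set read 3526 and 3938 in the same order. Of the weaker ones, 1 read 281 and 242, 1 read 76.0 and 145, and 1 was under the floor on both arrays. Ring1 read 264 and 295. No Rnf2 probe set was 2-fold lower, and whether any of them lies within the deleted part of the gene is not given in the sources used here, so the array values do not check the genotype. For this reason the sample is called the KO-labelled array. In every pair of signals the control value comes first.

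The 7 ES cell markers were above the floor on both arrays, with a summed signal of 82004 and 67573. Of 8 primitive endoderm markers, 7 were at least 2-fold higher on the KO-labelled array, and their summed signal was 2827 and 12642. Of 10 fibroblast markers 9 were above the floor on both arrays, none was 2-fold different, and the sum was 6194 and 8880. Of 5 neuronal markers 3 were above the floor, and their sum of 2479 and 802 differed mainly through Neurod1, with 1811 and 247, while Tubb3 read 442 and 378 and Map2 read 194 and 143, and Dcx and Snap25 were under the floor on both arrays. Of 9 blood and endothelial markers 3 were above the floor, and the sum of 1495 and 765 was mostly Pecam1, with 1021 and 411. The other 2 were Tek, with 181 and 74.1, and Gata1, with 71.8 and 80.8. Ptprc, Cd34, Kdr, Cdh5 and the globin genes were under the floor on both arrays. Of 6 trophoblast markers on the array 2 were above the floor in the control and 4 on the KO-labelled array, with a sum of 315 and 573. The ratio of the signals at the end and at the start of the transcript was 1.18 and 1.16 for Actb and 0.802 and 0.805 for Gapdh. The part of these cell markers in the results was not tested.

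A gene is called higher or lower here when its signals differed at least 2-fold, with signals under the floor set to the floor. Under this rule 437 genes, 3.54% of those described, were higher on the KO-labelled array and 322, 2.61%, were lower, together 6.15%. The count of called genes in any list below is to be read beside these shares. The shares fell with the mean signal of a gene on the 2 arrays. Up to a mean signal of 200, 6.67% of genes were higher and 3.83% lower. Above 3200, 0.694% were higher and 0.555% lower. The lists and families below were not matched for signal, so a share in bright or dim genes may differ for that reason alone. A difference against a signal at the floor is a lower bound, which holds for 101 of the higher and 45 of the lower genes. The median log2 difference of all genes was -0.02, and its robust SD over the 11223 genes above the floor on both arrays was 0.38. The higher genes had a median signal of 121 on the control array and 330 on the KO-labelled array. The lower genes had medians of 417 and 159. The counts at 4-fold were 53 higher and 20 lower, and at 8-fold 5 and 6.

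**Figure D1:**
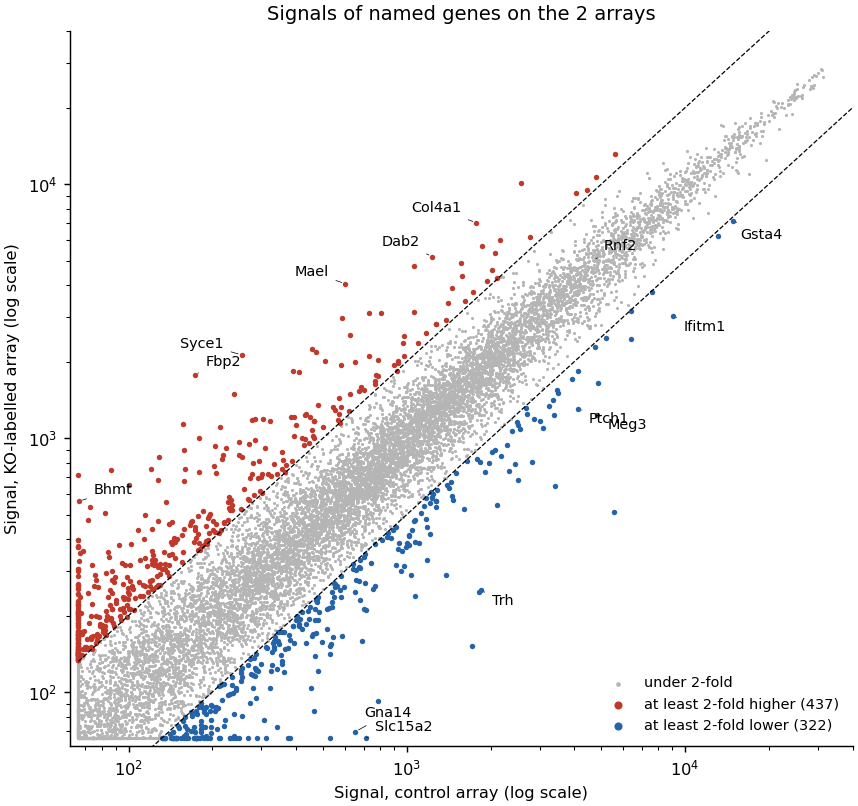
Signal of each gene on the control array (horizontal, log scale) and on the KO-labelled array (vertical, log scale), with signals under 66.0 drawn at the floor. Each point is 1 gene, dashed lines mark a 2-fold difference, and the 437 higher and 322 lower genes are coloured; named genes include Bhmt at 66.4 and 564 and Trh at 1844 and 252.

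The control array of the conditional pair was deposited on another scale and was set to the same trimmed mean for a further comparison. Read against it, 7.98% of genes were at least 2-fold higher on the KO-labelled array and 11.1% lower, together 19.1%. The 2 controls differed from each other in 20.3% of genes, with 12.2% higher and 8.15% lower on the control of the conditional pair. Of the 437 higher genes, 283 were also higher against that array, 140 of them at least 2-fold, and 44 were at least 2-fold lower. Of the 322 lower genes, 213 were also lower, 79 at least 2-fold, and 10 were at least 2-fold higher. This array is called the second control, and 55 of 179 genes named here turned direction against it.

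Different probe sets of a gene read the same RNA, so they show how far a difference depends on the probes, not on the sample. Among 5248 genes with a second probe set above the floor, the log2 differences of the brightest and the second probe set had a Pearson r of 0.70 across genes, which are not independent replicates. Of 103 higher genes with a second probe set, 95 had the same direction in it and 64 were at least 2-fold up there. Of 104 lower genes, 100 had the same direction and 52 were at least 2-fold lower. Of 5041 genes that were under 2-fold by their brightest probe set, 112 were at least 2-fold different in the second. The enzyme gene Pfkfb3 was among the genes whose probe sets were opposed, with a log2 difference of 1.17 in 1 probe set and -0.70 in the other.

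**Figure D2:**
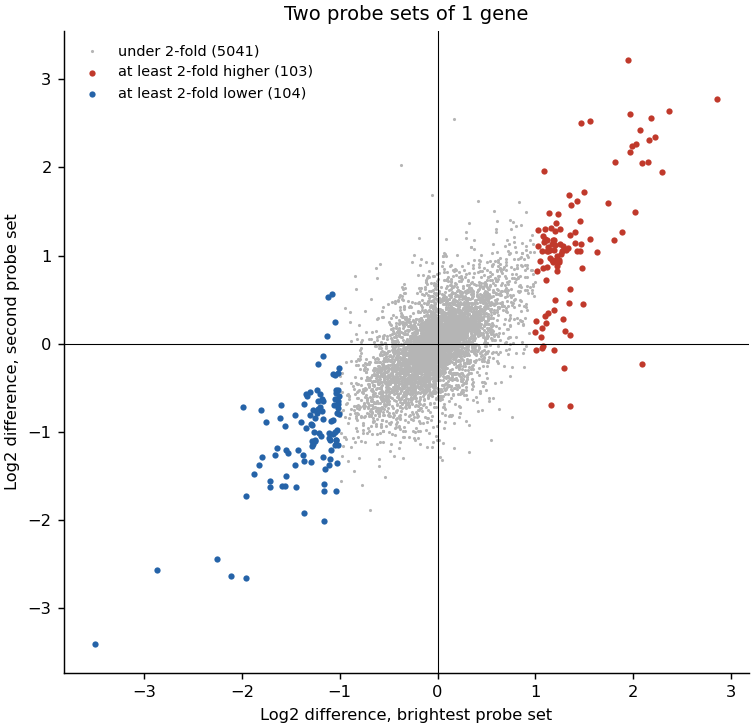
Log2 difference (KO-labelled minus control array) of the brightest probe set of a gene (horizontal) and of its second brightest (vertical), for 5248 genes with a second probe set above the floor. Higher genes by the brightest probe set are red and lower genes blue, and 95 of 103 and 100 of 104 lie on the same side of zero in the second.

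Of the 25 largest measured differences upward, 7 belonged to a list of germ cell genes, and Pdgfra, Sox7 and Sox17 were among the 8 primitive endoderm markers. Bhmt read 66.4 and 564, 8.49-fold higher; it encodes betaine-homocysteine methyltransferase, a methylation enzyme of liver and kidney. Syce1 read 255 and 2126, 8.33-fold higher, and Taf7l read 100.2 and 652, 6.51-fold higher. Syce1 is a central element protein of the synaptonemal complex of meiosis, and Taf7l is a germ cell form of a general transcription factor subunit. The carboxylesterase gene Ces5a read 82.4 and 506, and the homeobox gene Rhox13 read 158 and 894. Nostrin read 128 and 683, 5.34-fold higher, and Aspa read 67.1 and 353, 5.26-fold higher; Nostrin encodes a trafficking protein that binds endothelial nitric oxide synthase, and Aspa encodes aspartoacylase, which cleaves N-acetylaspartate. Adcy7 read 66.4 and 329, 4.96-fold higher, and encodes an enzyme that makes cyclic AMP. Against the second control the log2 differences of Bhmt, Syce1, Taf7l and Adcy7 were -0.14, -0.19, -0.99 and -0.20, so they turned, while those of Ces5a and Aspa were 1.91 and 0.09. Among the largest bounds were the sulphotransferase gene Chst15, under the floor on the control array and 377 on the KO-labelled array, at least 5.71-fold higher but at -0.10 on the log2 scale against the second control, and the cardiac myosin gene Myh6, at least 5.64-fold higher.

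Downward, Gna14 read 653 and 69.8, 9.36-fold lower, and encodes a G protein alpha subunit. Neurod1 read 1811 and 247, 7.33-fold lower, and Trh read 1844 and 252, 7.33-fold lower; these encode a neuronal bHLH factor and the precursor of thyrotropin-releasing hormone. The second probe set of Neurod1 had a log2 difference of -2.57. Nkx6-3 read 465 and 84.5, 5.51-fold lower, and Aass read 341 and 72.7, 4.69-fold lower; Aass carries out the first steps of lysine breakdown. Actn3 read 687 and 159, 4.33-fold lower, and the immunoglobulin superfamily gene Prtg read 528 and 152, 3.48-fold lower. Ttpa read 585 and 167, 3.51-fold lower, and encodes the transfer protein of vitamin E. Against the second control the log2 differences of Neurod1, Trh and Nkx6-3 were 1.71, 0.90 and 0.04, those of Aass and Actn3 were 0.14 and 0.09, and that of Gna14, with the second control at the floor, was at least 0.08. The largest bounds were the peptide transporter Slc15a2, with 716 on the control array and under the floor on the other, at least 10.8-fold lower, and the islet autoantigen gene Ica1, at least 8.02-fold lower.

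Enzymes of sugar metabolism differed in both directions within 1 pathway. Of 24 glycolytic and gluconeogenic genes above the floor, 5 were higher and 3 lower, and their median was -0.04, near that of all genes. The neighbouring genes Fbp2 and Fbp1 encode fructose-bisphosphatases, which run the gluconeogenic step opposite to phosphofructokinase. Fbp2 read 173 and 1776, 10.3-fold higher, and Fbp1 read 68.3 and 359, 5.25-fold higher. Both were also higher than on the second control, with log2 differences of 1.28 and 0.22. The muscle phosphoglycerate mutase Pgam2 read 177 and 418, 2.36-fold higher, and the neuronal enolase Eno2 read 118 and 247, 2.09-fold higher. Lower were the isoenzymes Aldoc, Ldhb and Eno3. Aldoc read 1019.9 and 379, 2.69-fold lower, Ldhb read 4131 and 1837, 2.25-fold lower, and Eno3 read 858 and 423, 2.03-fold lower. Aldoc, Eno2, Eno3 and Pgam2 are tissue-restricted isoenzymes.

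Of 27 citric acid cycle genes, none was higher and 1, 3.70%, was lower, near the 2.61% of all genes. Pdk1 read 3357 and 1409, 2.38-fold lower, and encodes a kinase that inhibits pyruvate dehydrogenase. None of 20 cholesterol synthesis genes was called, with log2 differences from -0.50 to 0.22. In the hypoxia list 2 of 24 genes were higher and 3 lower. The prolyl hydroxylase of collagen P4ha2 read 507 and 2015, 3.97-fold higher, while Bnip3 read 3096 and 1094, 2.83-fold lower, and Ndufa4l2, with 312 on the control array and under the floor on the other, was at least 4.72-fold lower. The list thus held members at least 2-fold apart in both directions, and its median was -0.02.

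The betaine genes stood in a row on chromosome 13. Bhmt, Bhmt2 and Dmgdh are neighbours there, and all were higher. Bhmt2 read 148 on the KO-labelled array and Dmgdh 173, both from under the floor. These are bounds of 2.25-fold and 2.63-fold. Dmgdh encodes the enzyme that removes a methyl group from the dimethylglycine that Bhmt produces. Relative to the second control, the log2 differences of these genes were -0.14, -0.81 and -0.34, so their direction turned. In the list of serine, glycine and folate metabolism 0 of 15 genes were higher and 1 was lower, the transsulphuration enzyme gene Cbs with 701 and 339.6, 2.06-fold lower.

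Glutathione transferases conjugate glutathione to electrophiles. Of 19 genes of this family above the floor 4 were called lower and none was called higher, with log2 differences up to 0.94. Gstt2 read 1035 and 290.2, 3.57-fold lower, and its neighbour Gstt1 read 327 and 127, 2.57-fold lower. Gstm3 read 549.6 and 236, 2.33-fold lower, and Gsta4 read 14849 and 7182, 2.07-fold lower. Measured from the second control, Gsta4 and Gstm3 turned, with log2 differences of 0.04 and 0.50. In the wider list of oxidant defence, with a median of -0.21, Gpx3 read 766 and 1681, 2.19-fold higher, and Txnip read 6379.8 and 2458, 2.60-fold lower. Gpx3 encodes the secreted glutathione peroxidase, and Txnip an inhibitor of thioredoxin that responds to glucose.

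The machinery of growth was nearly level between the arrays. Over 263 genes of the ribosome, translation, the proteasome, the respiratory chain, replication and repair, 1 gene was higher and none lower, with a median of -0.07. The share of called genes fell with signal, as given above, and this count was not matched for signal. The higher gene was Eif2s3y, a translation initiation factor gene on the Y chromosome, with 217 and 828, 3.81-fold higher. Its neighbour Uty was at least 2.11-fold higher, and at -0.22 on the log2 scale against the second control. These 2 were the higher genes among 3 Y-linked genes above the floor. Of 26 genes of the unfolded protein and amino acid stress response none was called, and their median was 0.20.

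Among the 75 lists described, the germ cell genes had the highest median outside the endoderm lists. The Hox and Tbx families, formed by symbol and not among these lists, had higher medians, of 1.06 and 0.95. Against the second control the medians of the same Hox and Tbx genes were 0.003 and -0.09. Of 14 higher Hox genes 6 were also higher there, and of 4 higher Tbx genes 2 were. The germ cell list holds genes of meiosis, of the piRNA pathway and of spermatogenesis that are silenced in somatic cells by DNA methylation and by a variant of PRC1. Of its 75 genes, 63 were on the array and 46 above the floor, of which 20 were higher and 4 lower, with a median log2 difference of 0.83 against -0.02 for all genes. Members that passed the floor only through a high signal on the KO-labelled array had to differ, so the counts are descriptions.

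The promoters of germ cell genes of this kind often hold the E-box CACGTG, a palindrome bound by Myc-type and Max-type factors. It was searched in the 300 bases around the annotated start, from 250 before it to 50 after it, in the RefSeq promoter sequences of build GRCm38.p6. Of all 9941 genes with a promoter sequence, 10.4% held it. Of the 20 higher germ cell genes 17 had a promoter sequence, and 7 of these, 41.2%, held the E-box (95% exact binomial interval 18.4 to 67.1, counting error only). Of 23 members that were not higher, 7 held it, 30.4%. Over the whole list 35.0% held it, and its share was above that of all promoters in the higher members and in the others alike. The members were chosen as germ cell genes of this kind, with earlier results of these data known, so these shares are not a test. The windows of the 7 higher genes are shown because the motif is a feature these members share, on the strand of transcription, with the E-box in capitals.
Slc25a31: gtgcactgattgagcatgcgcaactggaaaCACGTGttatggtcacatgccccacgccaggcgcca
Stk31: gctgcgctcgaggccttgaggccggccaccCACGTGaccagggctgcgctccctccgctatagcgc
Mael: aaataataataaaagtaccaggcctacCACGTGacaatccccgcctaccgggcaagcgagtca
Taf7l: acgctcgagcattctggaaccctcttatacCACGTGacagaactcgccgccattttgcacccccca
Sycp1: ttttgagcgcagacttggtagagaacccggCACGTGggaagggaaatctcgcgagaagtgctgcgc
Mov10l1: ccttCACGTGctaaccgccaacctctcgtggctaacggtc
Ddx4: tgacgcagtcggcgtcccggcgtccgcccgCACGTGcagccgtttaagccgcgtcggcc
The E-box lay 93 bases before the start in Slc25a31, 55 in Stk31, 223 in Mael, 49 in Taf7l, 94 in Sycp1, 246 in Mov10l1 and 29 in Ddx4. The positions are chr3:40708748-40708813 on the plus strand for Slc25a31, chr6:49395454-49395519 on the plus strand for Stk31, chr1:166238932-166238994 on the minus strand for Mael, chrX:134476504-134476569 on the minus strand for Taf7l, chr3:102936159-102936224 on the minus strand for Sycp1, chr15:88982744-88982783 on the plus strand for Mov10l1 and chr13:112652311-112652369 on the minus strand for Ddx4. The windows are cut at the start site and at the end of the promoter sequence. Further motifs were searched too. TTCCCGC, of the kind bound by E2F factors, was searched on both strands. It was present in 8.68% of all promoters, in 3 of the 17 higher germ cell genes and in 9 of the 23 others. The TATA box TATAAA was in 7.13% of all promoters, in 3 of the 17 and in 2 of the 23. CCAAT was in 38.5%, in 7 of the 17 and in 9 of the 23. Motifs of the GATA, SOX and octamer types were each in at most 1 of the 17 and 1 of the 23. A match is a description of the letters and not a binding site.

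The genes with these promoters cover several steps of germ cell development. Slc25a31 read 72.8 and 535, 7.35-fold higher, and encodes the adenine nucleotide carrier of sperm mitochondria. Mael read 600.4 and 4058, 6.76-fold higher, Mov10l1 read 143 and 468, 3.27-fold higher, and Ddx4 read 1065 and 3142, 2.95-fold higher; these encode components of the piRNA pathway, Mov10l1 and Ddx4 being RNA helicases. Stk31 read 156 and 1139, 7.28-fold higher, with a log2 difference of 2.77 in its second probe set. Sycp1, a transverse filament protein of the synaptonemal complex, was under the floor on the control array and read 261 on the other, at least 3.95-fold higher. Among the higher members without the E-box in the window, Dazl read 205 and 931, 4.55-fold higher, and encodes an RNA-binding protein of germ cells; its second probe set had a log2 difference of 2.56. Piwil2 read 433 and 1248, 2.88-fold higher, and encodes a PIWI protein that binds piRNAs. Meioc read 279 and 721, 2.59-fold higher, and Tex15 read 459 and 1020.2, 2.22-fold higher; both are needed for meiosis.

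The 4 lower members also act in germ cells. Hsf2bp read 1902 and 735, 2.59-fold lower, and its partner gene 4930432K21Rik, also known as Brme1, was 2.07-fold lower; their products act in meiotic recombination. Tex14 read 655 and 302, 2.17-fold lower, and Meiob was at least 2.47-fold lower. For the 46 members of the list the median against the second control was -0.21, and 13 of the 20 higher members were also higher. With the members above the floor on the KO-labelled array or the second control taken instead, the median was -0.50. Mov10l1, Sycp1, Piwil2 and 4930432K21Rik were among those that turned, the first 3 with log2 differences of -1.28, -2.03 and -0.53. The subunits and partners of the germ cell variant of PRC1 were all under 2-fold, 14 of 14, while 6.15% of all genes were called. With 14 genes the count cannot be set apart from that share. The largest differences were in E2f6, 0.84, and Mga, -0.57, on the log2 scale. Dnmt3l, the cofactor of DNA methylation in germ cells, had a log2 difference of 0.97, and Tet1, an enzyme that oxidises methylcytosine, -0.71. The deaminase family gene Apobec2 was the only called gene of the DNA methylation list, with 285 and 1193, 4.19-fold higher.

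**Figure D3:**
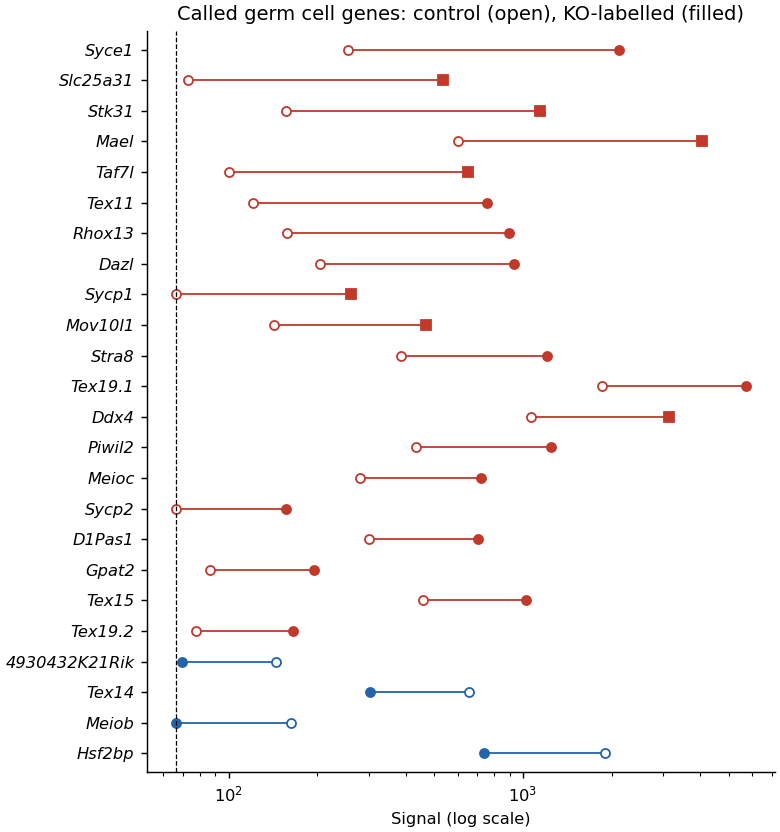
Signals of the 24 called germ cell genes on the control array (open circles) and on the KO-labelled array (filled circles), on a log axis, with the floor of 66.0 as a dashed line; filled squares mark genes with the E-box CACGTG in the promoter window. The KO-labelled value is on the right for 20 genes and on the left for 4, and signals under the floor are drawn at it.

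Signalling pathways were read from ligands and receptors to targets. In the Hedgehog list 17 of 18 genes above the floor had a negative log2 difference, with a median of -0.33, and 2 were called. Ptch1 read 4132 and 1304, 3.17-fold lower, and Gli1 read 356 and 133, 2.68-fold lower. Ptch1, the receptor of Hedgehog ligands, and Gli1, a transcription factor, are both direct transcriptional targets of the pathway. Against the second control their log2 differences were 0.29 and -0.94, and the median of the 18 genes was -0.04.

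In the Wnt list 5 of 45 genes were higher and none lower. Secreted proteins made up 4 of the 5. Dkk1 read 129 and 844, 6.55-fold higher, and Dkkl1 read 147 and 337, 2.29-fold higher. Notum read 93.5 and 213, 2.27-fold higher, and Dkk2 was at least 2.16-fold higher. Dkk1 is an inhibitor of the Wnt co-receptors, and Notum an esterase that inactivates Wnt ligands. The nuclear effector Lef1 read 171 from under the floor and was at least 2.59-fold higher. The median of the list was 0.04, near that of all genes, and Dkkl1 turned to -0.29 against the second control.

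Of 34 genes of the TGF-beta, Nodal and activin list 6 were higher and 1 lower. The Nodal inhibitor Lefty2 read 473 and 2188, 4.63-fold higher, while its paralogue Lefty1 had a log2 difference of -0.73. Fst read 292 and 694, 2.38-fold higher, and encodes follistatin, which binds activin. The receptor gene Tgfbr2 read 214 and 434, 2.03-fold higher, and Tgfbr3 read 184 and 376, 2.05-fold higher. Pmepa1 read 699 and 1548, 2.21-fold higher, and Tgfbi read 155 and 417, 2.69-fold higher; both are induced by TGF-beta. In the BMP list Bmp6 read 123 and 348, 2.84-fold higher, and Bmper read 92.3 and 379, 4.11-fold higher, while the ligand Bmp4 had a log2 difference of -0.86. Lefty2, Tgfbi and Tgfbr3 turned with the second control as the reference, at -0.62, -0.33 and -0.38, and Fst was at 2.15.

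In the FGF list 2 of 31 genes were higher, 6.45%, and 4 lower, 12.9%. The co-receptor gene Klb read 239 and 1489, 6.24-fold higher, and the ligand gene Fgf3 was 2.31-fold higher. On the lower side, the ligand gene Fgf17 read 515 and 212, 2.43-fold lower, and the gene of the FGF carrier protein Fgfbp1 read 494 and 157, 3.15-fold lower. The feedback inhibitor gene Spred1 read 2492 and 1159, 2.15-fold lower, and the ERK-responsive factor gene Etv5 read 6413 and 3168, 2.02-fold lower. Spred1 and Etv5 also were at least 2-fold lower in their second probe sets, but the log2 difference of Spred1 against the second control was 1.10. In the Notch list 1 gene was higher, the non-canonical ligand gene Dlk1 with 129.9 and 291, 2.24-fold higher, and 4 of 24 were lower, the ubiquitin ligases Dtx1 and Dtx4, the adaptor Numbl and the bHLH gene Hes6, between 2.01 and 2.43-fold lower.

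The LIF list, which covers the cytokine pathway that sustains mouse ES cells, had 16 of 20 genes with a negative difference and a median of -0.34. Socs2 read 2509 and 685, 3.66-fold lower, and Jak3 read 329 and 156, 2.11-fold lower; Socs2 is a feedback inhibitor of cytokine receptors. Pim1 had a log2 difference of -0.99. Of the retinoic acid list 4 of 16 genes were higher and none lower. The retinoic acid hydroxylase Cyp26a1 read 102 and 383, 3.75-fold higher, and Stra8 read 384 and 1208, 3.14-fold higher; both are retinoic acid targets, and Stra8 is the regulator of entry into meiosis. Rbp4 read 173 and 446, 2.58-fold higher, and its membrane receptor Stra6 was at least 2.78-fold higher. Of 24 insulin and IGF genes 3 were higher. The ligand gene Igf2 read 729.7 and 2106, 2.89-fold higher, and Igf1 was at least 2.49-fold higher. The RNA-binding protein gene Igf2bp3 read 578 and 1326, 2.29-fold higher. Igf2, Igf2bp3 and Rbp4 turned relative to the second control, with log2 differences of -2.11, -0.53 and -0.43, and Socs2, Cyp26a1 and Stra8 were at -1.35, 1.43 and 0.44.

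In the Hippo list 2 of 22 genes were higher, 9.09%, with a median of 0.40. Amot read 625 and 2539, 4.06-fold higher, and encodes the junctional scaffold angiomotin, and Ankrd1 read 190.2 and 449, 2.36-fold higher, a target of Yap. Set against the second control, the median was -0.22. The receptor tyrosine kinase Pdgfra read 457 and 2251, 4.92-fold higher, and the EGF family ligand Ereg read 201 and 471, 2.34-fold higher. Nuclear receptors had a median of -0.38 over 20 genes, with none called.

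**Figure D4:**
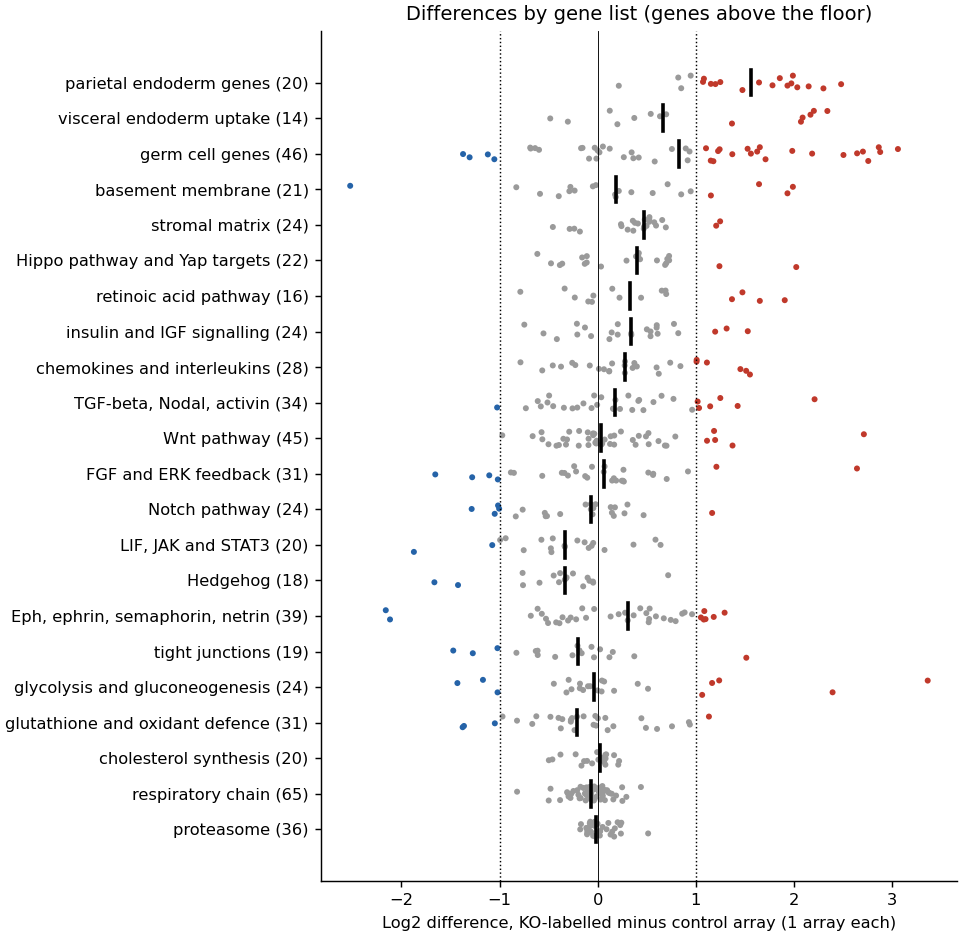
Log2 difference (KO-labelled minus control array) of each gene above the floor in 22 lists, 1 point a gene, with the list's median as a black bar and dotted lines at a 2-fold difference. The parietal endoderm and germ cell lists lie to the right, with medians of 1.56 and 0.83, and the proteasome, respiratory chain and cholesterol lists lie close to zero.

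Over all guidance and adhesion lists 7 of 103 genes were higher and 7 lower, with a median of -0.03. Of 39 genes of the Eph, ephrin, semaphorin and netrin list 6 were higher, 15.4%, and 2 lower, 5.13%. The ephrins Efna3 and Efna4 are neighbours on chromosome 3, together with the metalloproteinase gene Adam15, and all were higher: Efna3 read 254 and 527, Efna4 read 367 and 786, and Adam15 read 227 and 475. Efna5 read 69.6 and 148, 2.12-fold higher, and Efnb2 read 220.1 and 466, 2.12-fold higher. No Eph receptor was called. The netrin receptor Unc5b read 317 and 721, 2.27-fold higher, whereas the ligand Ntn1 read 1071 and 239.9, 4.47-fold lower. Sema3f read 130.2 and 319, 2.45-fold higher, and Sema3e read 451 and 104, 4.33-fold lower, so that members of 1 semaphorin class differed in opposite directions. With the second control as the reference, the log2 differences of Efna3 and Efna4 were 0.001 and 0.15. Those of Efna5, Efnb2 and Sema3f were -1.29, -1.05 and -1.26. Those of Unc5b and Adam15 were -0.70 and -0.13, that of Sema3e was 0.58 and that of Ntn1 -0.04. The median of the list was 0.31 against its own control and -0.10 for the same members against the second control.

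Epithelial junction genes were lower where they were called, apart from Jam3. Cldn4 read 2874 and 1189.9, 2.42-fold lower, Tjp3 read 434 and 156, 2.77-fold lower, and Crb3 read 545 and 269, 2.03-fold lower; these encode a claudin, a scaffold of tight junctions and an apical polarity protein. Jam3 read 279 and 798, 2.86-fold higher. The list of 19 genes had a median of -0.21. None of 15 desmosome and gap junction genes was called, and 1 of 18 integrins was lower.

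Of 21 basement membrane genes 4 were higher and 1 lower, beside the primitive endoderm marker sum given above. The neighbouring collagen genes were among the higher ones: Col4a1 read 1776 and 7049, 3.97-fold higher, and Col4a2 read 810.1 and 3095, 3.82-fold higher. Lama1 read 1560.0 and 4875, 3.13-fold higher, and Sparc read 4788 and 10653, 2.22-fold higher. These 2 collagens, the laminin chain and the matrix protein SPARC are major products of parietal endoderm, and 16 of 20 genes of the parietal endoderm list were higher, with a median of 1.56. The 2 endoderm lists and the markers share genes and are not separate evidence. Of 14 genes of secretion and protein uptake in visceral endoderm 6 were higher and none lower. Amn read 586 and 2969, 5.06-fold higher, Cubn read 1057 and 4750.2, 4.49-fold higher, and Lrp2 read 728 and 3097, 4.25-fold higher; cubilin, amnionless and megalin form the endocytic receptor complex. Their adaptor gene Dab2 read 1234 and 5184, 4.20-fold higher. Relative to the second control, the log2 differences of Amn, Lrp2 and Dab2 were 2.14, 0.86 and 3.03, and that of Cubn, with the second control at the floor, was at least 6.17. The collagen chaperone Serpinh1 read 4056 and 9256, 2.28-fold higher, and the lysosomal proteases Ctsh read 219 and 855, 3.91-fold higher, and Ctsc read 1451 and 3914, 2.70-fold higher. Sparc and Ctsc turned, at -0.37 and -0.13 against the second control. The stromal matrix list had a median of 0.47 with 2 of 24 called, Efemp1 at 1.25 and Has2 at 1.21 on the log2 scale, beside the fibroblast marker sum given above. Their part in the result was not tested.

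**Figure D5:**
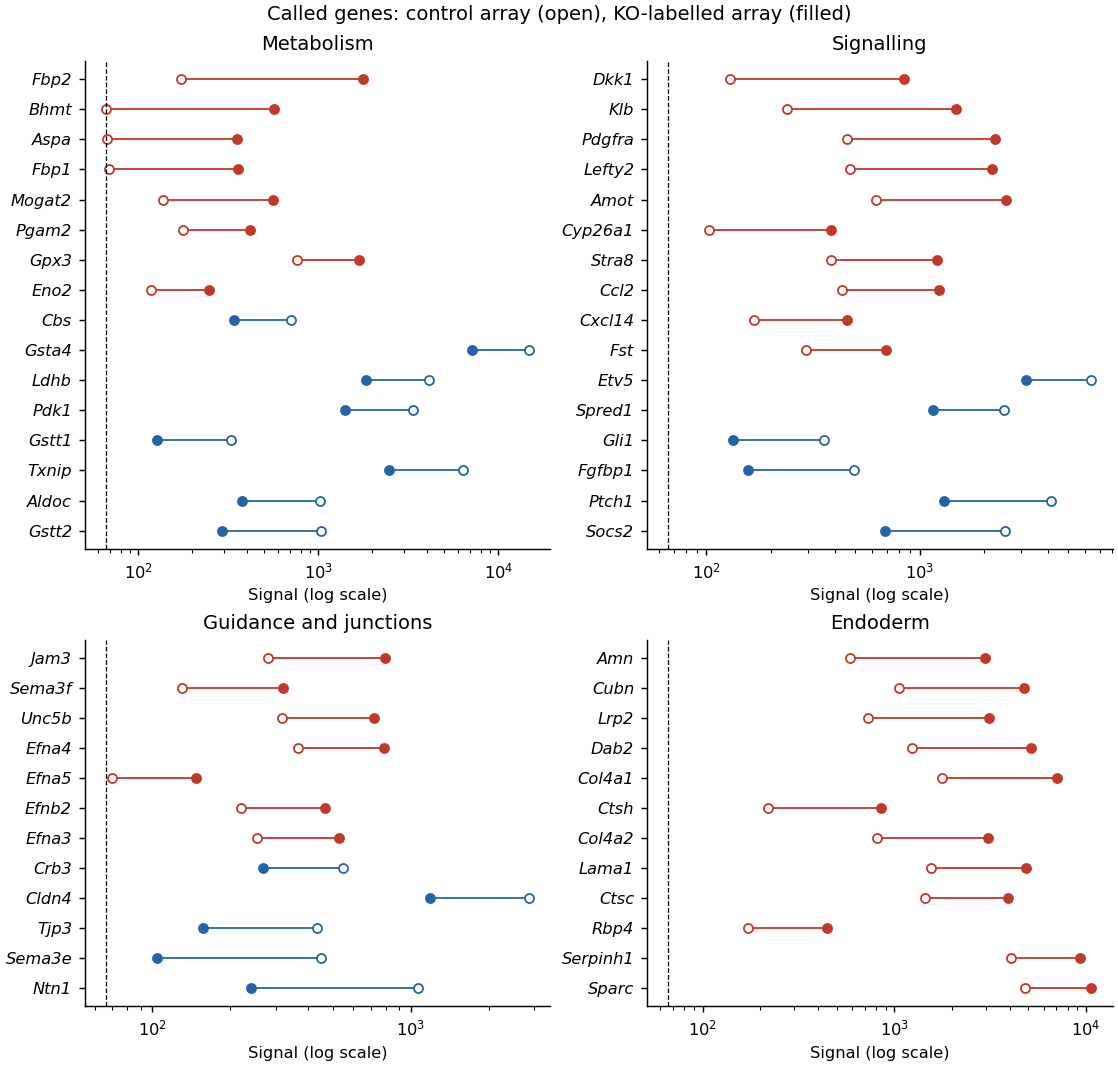
Signals of called genes on the control array (open circles) and on the KO-labelled array (filled circles), on a log axis, grouped by metabolism, signalling, guidance and junctions, and endoderm. Fbp2 and Bhmt lie farthest to the right of their control values among the metabolic genes shown, and Gstt2 farthest to the left.

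Cytokine genes were higher where they were called. Of 28 chemokine, interleukin and receptor genes 6 were higher and none lower. Ccl2 read 431 and 1231, 2.85-fold higher, and its neighbour Ccl7 read 365 and 734, 2.01-fold higher. Cxcl14 read 166 and 456, 2.74-fold higher, and Cxcl10 and Il6, both under the floor on the control array, stood at 193 and 143, bounds of 2.93-fold and 2.16-fold. The interferon list, in contrast, held called genes in both directions, 3 of 21 higher and 2 lower. Oas1a read 231 and 568, 2.46-fold higher, and Xaf1 read 132 and 305, 2.31-fold higher. Ifitm1 and Ifitm3 are neighbouring transmembrane protein genes. Ifitm1 read 9051 and 3021, a log2 difference of -1.58, and Ifitm3 read 13141 and 6236, 2.11-fold lower; both are expressed in early germ cells as well as induced by interferon. The second control turned them, with log2 differences of 1.51 and 0.62, as it did for Ccl2, -0.58, Cxcl14, -2.24, Il6, -0.73, and Oas1a, -0.82.

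Of 21 PRC1 genes above the floor 3 were higher and 1 lower. Bmi1 read 304 and 1190.1, 3.91-fold higher, and Bcor read 302 and 725, 2.40-fold higher, each with a second probe set at least 2-fold higher, and Cbx8 was at least 2.02-fold higher. The Polyhomeotic gene Phc1 read 7578 and 3767, 2.01-fold lower. Bcor and Phc1 turned against the second control, at -0.91 and 0.34. The PRC2 cofactor Epop read 1409 and 3397, 2.41-fold higher. None of 36 histone deacetylase and acetyltransferase genes was called. Of 42 remodeller genes 1, 2.38%, was higher and 2, 4.76%, were lower, beside 3.54% and 2.61% of all genes. Zinc finger genes with the symbol Zfp numbered 300 above the floor, of which 2, 0.667%, were higher and 6, 2%, lower, both under the shares of all genes.

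Of 36 imprinted genes above the floor 4 were higher and 4 lower, 11.1% each. The maternally expressed RNAs Meg3, Rian and Mirg lie in a row on chromosome 12 and all were lower. Meg3 read 4813 and 1237, 3.89-fold lower, Rian read 1381 and 289, 4.78-fold lower, and Mirg read 541 and 164, 3.29-fold lower. Their second probe sets had log2 differences of -2.66, -2.45 and -1.63, and against the second control their log2 differences were -1.54, -0.31 and -0.78. Dlk1, expressed from the paternal allele of the same imprinted domain, was 2.24-fold higher, and its log2 difference against the second control was -1.76. The cell cycle inhibitor Cdkn1c read 649 and 1989, 3.06-fold higher, the zinc finger gene Plagl1 read 974 and 2517, 2.58-fold higher, and Mkrn3 read 286 and 122, 2.35-fold lower. These 3 also turned, with log2 differences of -0.46, -0.52 and 0.88 against the second control.

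Called genes were also read along the chromosomes, with no test. Genes above the floor were ordered by start within each chromosome. The next gene was also higher for 43 of 436 higher genes, 9.86%, beside 3.55% of all placed genes that were higher, and also lower for 20 of 320 lower genes, 6.25%, beside 2.60%. The 35 runs of higher genes held 78 genes, and the longest, of 5, was the Hox run from Hoxa7 to Hoxa11os. Outside the Hox clusters were the runs of Fbp2, Bhmt, Efna3, Col4a1 and Ccl2 given above. Mogat2 and Dgat2 encode neighbouring acyltransferases of triglyceride synthesis: Mogat2 read 136 and 559, 4.10-fold higher, and Dgat2 read 200.5 and 435, 2.17-fold higher, with -0.17 on the log2 scale against the second control. Tex19.1 read 1858 and 5730.2, 3.08-fold higher, and its neighbour Tex19.2 read 77.1 and 166, 2.15-fold higher. A further run held Tcstv1, Gm20767 and AF067061, of a family expressed in cleavage-stage embryos, all from under the floor to 134, 141 and 285; probe sets of near-identical copies can share signal, so these 3 values are not separate. The 18 runs of lower genes held 38 genes, at most 3 in a run, among them Meg3, Rian and Mirg, Gstt1 and Gstt2, Ifitm1 and Ifitm3, and Ahi1 and Myb. Ahi1 read 292 and 121, 2.40-fold lower, and Myb read 470.1 and 171, 2.74-fold lower.

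Over the autosomes and the X chromosome the medians lay from -0.09 on chromosome 8 to 0.02 on chromosome 4, and the 3 genes of the Y chromosome had a median of 1.08. The balance of higher and lower genes varied between chromosomes and was not tested. On chromosome 13, 23 of 448 genes, 5.13%, were higher and 4, 0.893%, lower. On chromosome 16, 6 of 399 genes were higher and 15, 3.76%, lower. The shares of all genes were 3.54% and 2.61%. These 2 chromosomes were picked for their uneven counts, and the X chromosome had a larger share of higher genes, 6%. The count of chromosome 13 includes the runs of Fbp2, Bhmt, Tcstv1 and Cxcl14, whose neighbouring genes are each counted.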

How the data were processed

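Total RNA of each culture was hybridised to 1 Affymetrix mouse expression array of 45101 probe sets, 1 array a group. The authors deposited linear signal intensity values made with MAS5, per the submitters' processing notes. The Ring1B pair had a trimmed mean of 500 (2% cut at each end) as deposited, and the other 2 arrays were multiplied by 3.12 and 3.4 to reach it. Of the probe sets, 34958 carry 1 gene symbol, 932 several and 9211 none in the platform annotation. A gene was read by its brightest probe set, averaged over the 4 arrays on the log2 scale before any floor was set. The floor of 66.0 was then applied to the signals compared. List symbols were matched through RefSeq synonyms.

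Genes named in the text are the Rnf2 and Ring1 probe sets, the 25 largest measured differences and 10 largest bounds in each direction, up to 5 called members of a list in each direction with its defining members, families by symbol, and members of runs of neighbours. Not all of these genes are printed. Those left out include several Hox genes, among them the largest upward bound, at least 10.9-fold. Lists and members were chosen with earlier results of these data known. A check of promoter features over all called genes is void, since 76.9% of the higher and 78.9% of the lower genes had a promoter sequence and 80% were needed. Python 3.11.15, numpy 2.4.6, pandas 2.3.3 and scipy 1.17.1 were used.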

Additional observations from a re-analysis of the deposited data

How the results depend on the processing

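With 1 array a group no replicate could be left out. No paired analysis was possible because each group has 1 array. The counts of 437 higher and 322 lower genes became 880 and 762 when the floor was lowered to the 20th percentile, 168 and 152 when it was raised to the 60th, 1180 and 1123 at a threshold of 1.5-fold, and 120 and 57 at 3-fold. A pseudocount equal to the floor gave 179 lower genes. Against the second control the counts were 1001 and 1395. Under quantile normalization, median centring, a floor from the pair alone, the mean over probe sets and the omission of probe sets that can cross-hybridise, both counts stayed within 1.5 times, and every list median moved by less than 0.38, the robust SD.

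A list was counted as turned only if its own median was beyond 0.38 in size. Against the second control 3 of 75 lists turned, to -0.22 for Hippo, -0.084 for metalloproteinases and -0.50 for germ cell genes. These medians are over the members above the floor on either array then compared. A further 19 lists moved by more than 0.38, among them the primitive endoderm markers, at 1.32. Some of the 19 also changed sign without being counted as turned. The interferon list went from 0.17 to -1.02 and the naive ES cell list from -0.36 to 0.19. The unfolded protein and amino acid stress list went from 0.20 to -0.35. No called gene among the 180 named turned direction under any other alternative run, and 55 of 179 did against the second control, for which the cause was not tested. Of genes higher against their own control, these had the following log2 differences there: Adam15 (-0.13), Adcy7 (-0.20), Bcor (-0.91), Bhmt (-0.14), Bhmt2 (-0.81), Ccl2 (-0.58), Cdkn1c (-0.46), Chst15 (-0.098), Ctsc (-0.13), Cxcl14 (-2.24), Dgat2 (-0.17), Dkkl1 (-0.29), Dlk1 (-1.76), Dmgdh (-0.34), Efna5 (-1.29), Efnb2 (-1.05), Igf2 (-2.11), Igf2bp3 (-0.53), Il6 (-0.73), Lefty2 (-0.62), Mov10l1 (-1.28), Oas1a (-0.82), Pfkfb3 (-0.47), Piwil2 (-0.53), Plagl1 (-0.52), Rbp4 (-0.43), Sema3f (-1.26), Sparc (-0.37), Syce1 (-0.19), Sycp1 (-2.03), Taf7l (-0.99), Tbx3 (-0.75), Tgfbi (-0.33), Tgfbr3 (-0.38), Unc5b (-0.70) and Uty (-0.22). Of lower genes, these had 4930432K21Rik (0.048), Aass (0.14), Actn3 (0.090), Gna14 (0.080), Gsta4 (0.044), Gstm3 (0.50), Ifitm1 (1.51), Ifitm3 (0.62), Ina (0.071), Mkrn3 (0.88), Neurod1 (1.71), Nkx6-3 (0.038), Numbl (0.20), Pecam1 (0.71), Phc1 (0.34), Ptch1 (0.29), Sema3e (0.58), Spred1 (1.10) and Trh (0.90). Among the named genes, values moved by more than 0.38 without turning for 36 of 180 with the mean over probe sets, 35 of 180 with the pseudocount, 50 of 158 with the raised floor, 14 of 180 with the lowered floor and 92 of 179 against the second control. The floor limits what can be said of dim genes, and 1 array a group limits the precision of every value.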

Other observations

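Gene families formed by symbol gave further values, to be read beside the 3.54% of all genes that were higher and the 2.61% that were lower. These families were not matched for signal either. Of 17 cytochrome P450 genes above the floor 5 were higher on the KO-labelled array and none lower, and of 10 carbonic anhydrase genes 3 were higher and none lower. The S100 calcium-binding proteins had 3 of 8 higher and the cathepsins 3 of 13, with none lower in either. The solute carriers had 14 of 231 higher, 6.06%, and 7 lower, 3.03%. None of 76 mitochondrial ribosomal protein genes, 49 F-box genes, 30 Mediator genes and 19 nucleoporin genes was called.

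Genes of naive ES cells differed in both directions, with 3 of 26 higher and 4 lower and a median of -0.36. Calml4 read 5572 and 509.6, 10.9-fold lower, Dppa3 read 3418 and 647, 5.29-fold lower, and Klf2 read 3495 and 1507, 2.32-fold lower, while Tbx3 read 972 and 2367, 2.43-fold higher. Klf2 and Tbx3 encode transcription factors of the naive network, and Dppa3 encodes a maternal factor that protects DNA methylation in the zygote. Against the second control the log2 differences were -0.52, -2.59, -1.03 and -0.75 in the same order. The neurofilament genes were divided. Nefh read 308 and 912, 2.96-fold higher, and Nefm was at least 2.34-fold higher, while Ina read 1173 and 480.4, 2.44-fold lower, with 0.07 on the log2 scale against the second control. The heat shock list had 3 of 27 genes higher, Hspa1b with 429 and 996, Cryab with 773 and 1777 and Serpinh1.

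Probe sets not named with 1 gene were not used in any comparison. Of 10092 such probe sets 3515 were above the floor, and 1.82% were at least 2-fold higher and 1.91% lower.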
